A study of Mus musculus with 12 samples.

Results

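Fam183b, Clybl, Cnga1 and Serpini1 are 4 of 22180 genes measured in mouse T cells. Their signal was lower after azacitidine, in natural regulatory T cells and in CD4 effector T cells. The 4 were picked for that fall, so their differences between drug and control are given here as a description with no test. Each of them is read from the 1 row of the deposited table that carries its symbol alone.

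Affymetrix arrays measured RNA of 12 samples in 4 groups of 3. Natural regulatory T cells (nTregs) came from spleens of B6.Foxp3GFP reporter mice. They were grown at 1 part to 10 parts with Treg-depleted T cells of a cross that carries the same reporter and a DsRed transgene (CAG promoter, active in most cell types). For the first 2 days every culture, the controls included, held anti-CD3/CD28 beads, which activate T cells, and medium with L-glutamine, penicillin, streptomycin and recombinant human interleukin-2 at 500 U/mL. They then stayed for 2 days with azacitidine (AzaC) at 1 µM or with PBS. Sorting gave the groups nTreg PBS and nTreg AzaC (CD4+, DsRed-, Foxp3 reporter+) and the groups CD4 PBS and CD4 AzaC (CD4+, DsRed+, reporter-), whose cells are called CD4 cells here. The strain label of all 12 samples names the DsRed cross, also for the nTregs. The labels give no animal ages and do not say whether replicates were separate animals or cultures, so the spread behind each p-value is that among these samples and may be technical.

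AzaC is a cytidine analogue that cells build into RNA and DNA, where it traps DNA methyltransferases, so that methylation is lost as cells divide. Textbook accounts of the drug centre on genes that rise when methylation is lost. The 4 genes described here went the other way and have unrelated roles. Fam183b (also named Cfap144) encodes a small protein of motile cilia and flagella, structures that T cells do not build. Clybl is a mitochondrial lyase that splits citramalyl-CoA, a product of itaconate breakdown, and its loss is linked to low vitamin B12. Cnga1 is the alpha subunit of the cGMP-gated cation channel of rod photoreceptors. Serpini1, neuroserpin, is a secreted inhibitor of tissue plasminogen activator, best known in neurons.

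Array medians ranged from 6.67 to 6.80 (log2 signal). The array nTreg PBS 1 stood apart, with a mean correlation of 0.961 with the other arrays. The T cell markers Cd3e, Cd3g and Cd4 were bright in every group (group means 10.84 to 13.11 on the log2 scale). Foxp3, on whose reporter the cells were sorted, stood at 12.34 ± 0.31 (SD, n = 3) in nTreg PBS and at 8.05 ± 0.24 in CD4 PBS. As a reference for dim signal, 1105 olfactory receptor genes were used, which are not known to work in T cells. Their 95th percentile lay between 6.78 and 7.10 from array to array. All NK cell markers measured (3 of 3) and all measured erythroid and platelet markers (2 of 5 listed) lay at or below that level in every group. So did 3 or 4 of 4 B cell markers and 4 or 5 of 5 myeloid markers. With AzaC in nTregs both CD8 T cell markers passed an adjusted p under 0.05, and of the 5 myeloid markers only Itgam did. Itgam ended there in dim signal (6.64 ± 0.34). The myeloid markers Lyz2, Csf1r, Cd14 and Adgre1 differed by −0.69, −0.13, −0.02 and −0.25 in nTregs (limma adjusted p of 0.089 to 0.943). Cd8a rose by 1.39 (limma adjusted p = 0.0018). Cd8b1 rose by 0.72 (adjusted p = 0.0213; lost without nTreg PBS 1 or without nTreg AzaC 1, 2 or 3, at 0.0547 to 0.0974, and with no variance moderation, at 0.0874). The myeloid marker Itgam fell by 0.94 on the log2 scale (adjusted p = 0.0335), a call lost without any of 7 arrays (CD4 AzaC 2 and 3, nTreg PBS 2 and 3, nTreg AzaC 1, 2 and 3, at 0.0519 to 0.141), with arrays centred (0.0515) and with no variance moderation (0.138). The mean over both CD8 T cell markers ranged from 8.35 to 8.96 in nTreg PBS, 9.62 to 9.75 in nTreg AzaC, 8.46 to 8.55 in CD4 PBS and 8.11 to 8.54 in CD4 AzaC. The mean over the 5 myeloid markers ranged from 6.34 to 6.48 in nTreg PBS, 5.85 to 6.08 in nTreg AzaC, 6.16 to 6.27 in CD4 PBS and 6.01 to 6.17 in CD4 AzaC. The part of these cells in the falls described here was not tested. In such bulk samples, fewer cells of a type and less RNA per cell cannot be told apart.

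The 4 genes had a median difference of −1.04 between AzaC and PBS in nTregs and of −1.25 in CD4 cells on the log2 scale, where all genes had medians of −0.04 and 0.01. For each of the 4, every AzaC array lay below every PBS array of the same population. Such a separation in both populations was found for 414 genes, or 1.87% of all, and the choice of the 4 on this contrast fixes it for them. The genes split into 3 patterns by population: Fam183b was higher in nTregs, Cnga1 was higher in CD4 cells, and Clybl and Serpini1 had overlapping arrays in the 2 populations.

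**Figure D1:**
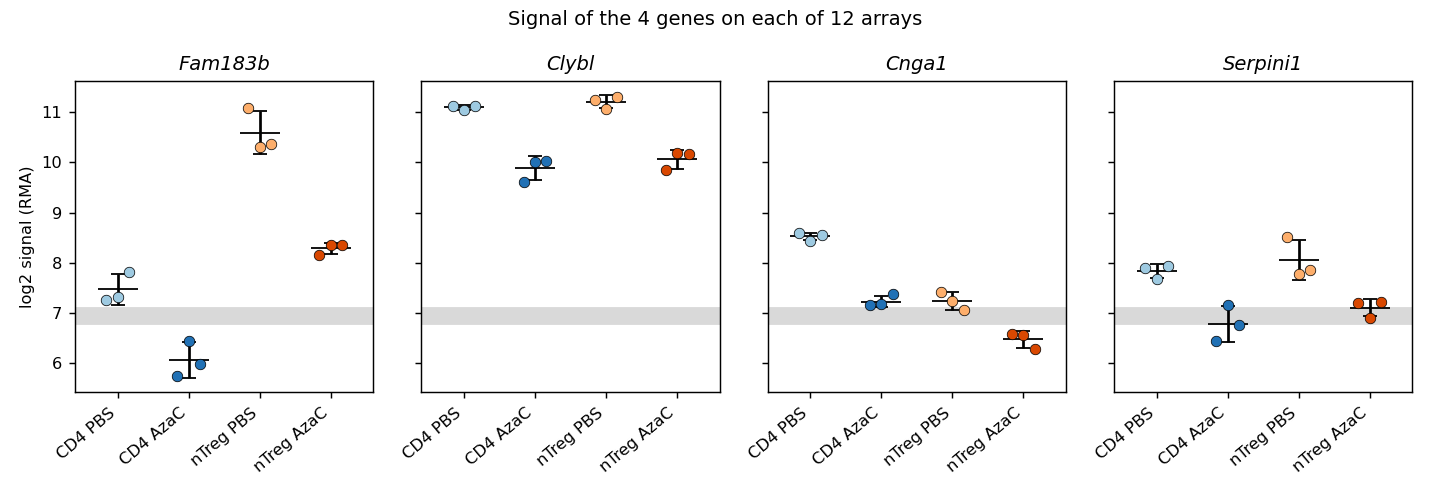
Log2 signal (vertical axis) of Fam183b, Clybl, Cnga1 and Serpini1 on each array, by group (horizontal axis); points are arrays 1 to 3 from left to right, the horizontal bar is the group mean, error bars are 1 SD (n = 3), and the grey band is the range over arrays of the 95th percentile of olfactory receptor genes (6.78 to 7.10). In every panel the AzaC points of a population lie below its PBS points, and Fam183b with AzaC in nTregs (8.16 to 8.36) still lies above CD4 cells under PBS (7.27 to 7.81).

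Fam183b, the cilium gene, had the largest fall in nTregs of all 22180 genes and ranked 4 in CD4 cells. In nTregs its signal was 11.09, 10.31 and 10.36 under PBS and 8.16, 8.36 and 8.35 with AzaC (arrays 1 to 3, log2 scale). The array nTreg PBS 1 was the highest of the 12, and the 2 nTreg groups were separated by 1.95. The mean went from 10.59 ± 0.43 (SD, n = 3) to 8.29 ± 0.11, a difference of −2.30 (SE 0.22), which left 20.4% of the PBS signal. Without nTreg PBS 1 the difference was −2.05. In CD4 cells the signal was 7.27, 7.32 and 7.81 under PBS and 5.75, 6.45 and 5.98 with AzaC. All 3 CD4 AzaC arrays lay below the 95th percentile of the olfactory receptor genes, so the difference of −1.41 (SE 0.22; 7.47 ± 0.30 to 6.06 ± 0.36) ends in dim signal and its size is not exact. The order of the groups was nTreg PBS, nTreg AzaC, CD4 PBS and CD4 AzaC. No neighbours in this order overlapped, and the closest pair, nTreg AzaC and CD4 PBS, differed by 0.82 in their means. The share of all genes with groups so separated is not given, so this order is a description. The fall in nTregs was the larger as measured, but since the CD4 fall ends in dim signal, no size is given for the difference between the falls.

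The promoter of Fam183b is shown because its letters hold a pair of matches to a loose, X-box-like spelling. The X-box is the site that RFX factors bind in genes of cilia. The spelling allows any base at several positions, so a match need not be an X-box. The sequence covers the 250 bases before the RefSeq start at chr11:58801961-58802210 (GRCm38.p6, minus strand), written 5′ to 3′, with the matches to GTTGCC, any 2 bases, G, any 2 bases, AC (both strands searched) in capitals.
Fam183b: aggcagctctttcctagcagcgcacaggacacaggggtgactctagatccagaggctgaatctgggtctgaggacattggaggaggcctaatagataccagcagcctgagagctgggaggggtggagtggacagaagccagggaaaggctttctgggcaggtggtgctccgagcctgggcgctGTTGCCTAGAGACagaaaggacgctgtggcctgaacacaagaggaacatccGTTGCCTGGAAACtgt
The matches lie 67 to 55 and 16 to 4 bases before the start. Of 32851 promoters of 300 bases in the RefSeq table, 220 (0.67%) held this spelling and 14 (0.0426%) held it more than once. The spelling was chosen after the Fam183b sequence had been read, so these shares are no test. Of 33 genes of a motile cilium and axoneme list with a promoter in the table, 4 held it (Cfap20, Dnaic2, Spag16 and Tekt2). The arrays did not measure binding at these letters.

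Foxp3 moved differently from Fam183b in CD4 cells. Foxp3 rose there from 8.05 ± 0.24 (SD, n = 3) to 9.62 ± 0.23 with AzaC (difference 1.57, SE 0.16, limma adjusted p = 0.000207), while Fam183b went from 7.47 to 6.06. Il2ra, the interleukin-2 receptor alpha chain of Tregs and activated T cells, also rose in CD4 cells, from 12.52 ± 0.08 to 13.11 ± 0.04 (adjusted p = 0.00383). The other Treg markers Ctla4, Ikzf2 and Tnfrsf18 differed there by −0.16, 0.06 and 0.06 (adjusted p of 0.524 to 0.848). In nTregs Foxp3 stood at 12.34 ± 0.31 and 12.69 ± 0.02 (adjusted p = 0.294). Both genes were higher in nTregs than in CD4 cells, by 3.68 (SE 0.12) for Foxp3 and by 2.67 (SE 0.15) for Fam183b when averaged over drug.

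Clybl, the mitochondrial lyase, fell by about the same amount in both populations. In nTregs it read 11.25, 11.06 and 11.31 under PBS and 9.84, 10.18 and 10.16 with AzaC. In CD4 cells it read 11.13, 11.04 and 11.13 under PBS and 9.62, 10.01 and 10.03 with AzaC. The PBS arrays of the 2 populations overlapped, as did their AzaC arrays, and a gap of 0.85 separated the lowest PBS group from the higher AzaC group. The difference was −1.15 (SE 0.13) in nTregs and −1.21 (SE 0.13) in CD4 cells, which left 45.2% and 43.3% of the PBS signal. The 2 falls differed by 0.06 (SE 0.19), a description with no test, since Clybl was chosen on both falls. Every array of Clybl stood above the 95th percentile of the olfactory receptor genes, which was not so for the other 3 genes.

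Cnga1, the rod channel subunit, had its larger measured fall in CD4 cells. In CD4 cells it read 8.59, 8.44 and 8.55 under PBS and 7.16, 7.18 and 7.37 with AzaC. The difference was −1.29 (SE 0.12; 8.53 ± 0.07 to 7.23 ± 0.11, SD, n = 3), the seventh largest fall in that population, and 40.8% of the signal was left. In nTregs it read 7.41, 7.25 and 7.07 under PBS and 6.59, 6.57 and 6.28 with AzaC, a difference of −0.76 (SE 0.12). The nTreg AzaC arrays all lay below the 95th percentile of the olfactory receptor genes, so this size is not exact. In the order of the groups, CD4 PBS came first and nTreg AzaC last. Between them nTreg PBS (7.24 ± 0.17) and CD4 AzaC (7.23 ± 0.11) overlapped and differed by 0.01. Both lay just above dim signal, at percentiles 96.7 to 97.2 and 96.3 to 97.7 of the olfactory receptor genes. Equal readings there do not show equal levels, and the CD4 fall of −1.29 ends near dim signal. The fall in nTregs was the smaller as measured, and since it ends in dim signal, no size is given for the difference between the falls.

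Serpini1, the protease inhibitor, had measured falls of similar size in both populations and a wider spread between arrays than Clybl or Cnga1. In nTregs it read 8.51, 7.78 and 7.85 under PBS and 7.20, 6.91 and 7.22 with AzaC. The difference was −0.94 (SE 0.20), and without nTreg PBS 1, the highest array, it was −0.70. In CD4 cells it read 7.89, 7.67 and 7.94 under PBS and 6.45, 7.17 and 6.76 with AzaC, a difference of −1.04 (SE 0.20). The AzaC arrays of CD4 cells spread from 6.45 to 7.17, and 1 of the 3 lay above the 95th percentile of the olfactory receptor genes, so this size is not exact either. As for Clybl, the PBS groups of the populations overlapped and so did the AzaC groups. As measured, the 2 falls differed by 0.10 (SE 0.28), a description with no test. The CD4 fall ends partly in dim signal, so the size of this difference is not exact.

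The difference between the populations, averaged over drug, does not use the contrasts that chose the genes and was tested. The fit treats the samples as independent, though samples of the populations may share a culture. In limma, fitted over all genes with Benjamini-Hochberg adjustment, 2617 genes (11.8%) passed at an adjusted p under 0.05, 1510 (6.81%) higher in nTregs and 1107 (4.99%) lower. Fam183b was 6.38-fold higher in nTregs (log2 difference 2.67, SE 0.15, adjusted p = 3.93e-08). It was 8.69-fold higher under PBS and 4.69-fold higher with AzaC. The latter fold and the averaged fold use CD4 AzaC arrays in dim signal, so their sizes are not exact. Cnga1 was 2.03-fold lower in nTregs (log2 difference −1.02, SE 0.09, adjusted p = 1.84e-06). Its difference was −1.28 under PBS, where the nTreg arrays lay just above dim signal. With AzaC it was −0.75, where the nTreg arrays were dim, so that size and the average are not exact. Clybl (difference 0.14, 95% confidence interval −0.06 to 0.34, adjusted p = 0.43) and Serpini1 (0.27, −0.04 to 0.57, adjusted p = 0.29) did not pass, which does not show equal levels.

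**Figure D2:**
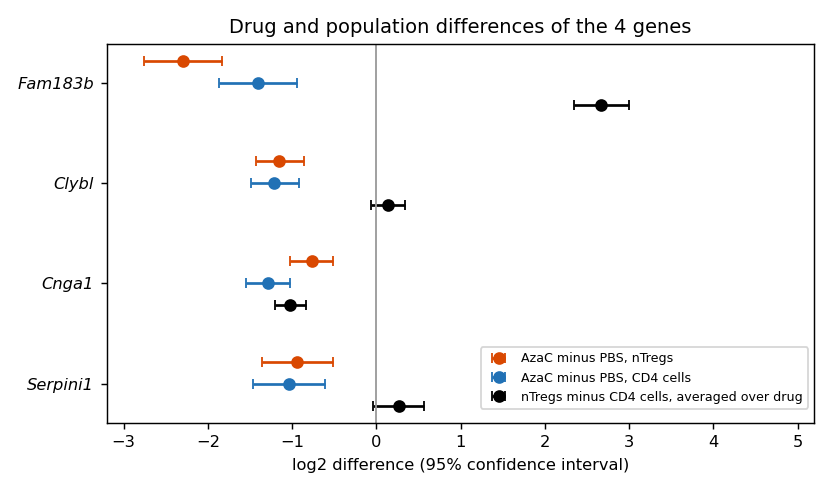
Log2 differences (horizontal axis) of the 4 genes (vertical axis) for AzaC minus PBS in nTregs and in CD4 cells and for nTregs minus CD4 cells averaged over drug, with 95% confidence intervals from limma. The intervals of the AzaC differences take no account of the choice of the genes by these differences and are no test. The drug differences lie left of 0 for all 4 genes, by which they were chosen, while the population difference is 2.67 for Fam183b, −1.02 for Cnga1 and has an interval across 0 for Clybl and Serpini1.

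At an adjusted p under 0.05, AzaC lowered 133 genes (0.6%) in nTregs and 207 (0.933%) in CD4 cells. Of these, 36 (0.162% of all genes) were lower in both, which is 27.1% of the nTreg list and 17.4% of the CD4 list. These comparisons share no arrays, but they share each gene's variance estimate, so the lists are not independent. The populations were grown together and sorted apart, so samples of both may also come from the same culture, which the labels do not say. Ranked by the smaller of the 2 falls among the 36, Fam183b came first, Clybl 2, Serpini1 3 and Cnga1 5. The ranks of Fam183b and Cnga1 rest on falls that end in dim signal and are not exact. Scd1 (a fatty acid desaturase) stood between Serpini1 and Cnga1 at −0.79 in nTregs and −2.02 in CD4 cells. Next below Cnga1 came Emc9 (−0.76 and −0.99), a subunit of a membrane protein insertion complex of the endoplasmic reticulum, and Cd7 (−0.89 and −0.76), a surface receptor of T and NK cells. The 36 became 72 without nTreg PBS 1. They became 13 to 22 without any of CD4 PBS 1 or 2, CD4 AzaC 1, 2 or 3, nTreg PBS 3, or nTreg AzaC 1, 2 or 3. The 133 became 57, 48 and 44 without nTreg AzaC 1, 2 and 3. The 207 became 676 without nTreg PBS 1, 93, 94 and 87 without CD4 PBS 1, 2 and 3, and 64 and 81 without CD4 AzaC 1 and 3.

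**Figure D3:**
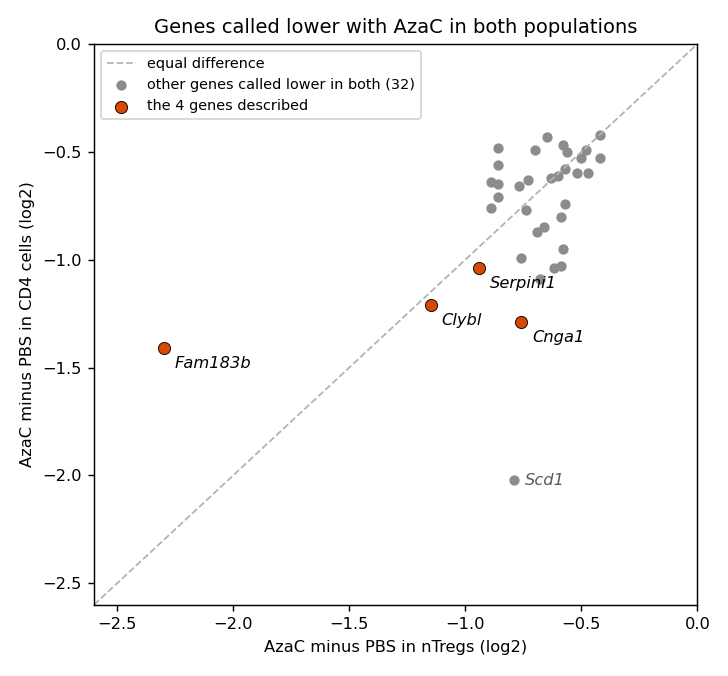
AzaC minus PBS in nTregs (horizontal axis, log2) against the same in CD4 cells (vertical axis, log2) for the 36 genes called lower in both; the dashed line marks equal differences. Fam183b lies apart at −2.30 and −1.41, Clybl and Serpini1 lie near the line, and Cnga1 and Scd1 lie below it.

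On 4 of 12 arrays, at least 3 of the 4 genes stood at the same end of their group (the lowest array or the highest), and on the other 8 at most 2 did. The array CD4 AzaC 1 was the lowest of its group for 4 of 4 genes, by 0.31 below the group mean for Fam183b (deviation −0.31), −0.27 for Clybl, −0.08 for Cnga1 and −0.34 for Serpini1. The array nTreg PBS 1 was the highest of its group for 3 of 4, with deviations of 0.50 for Fam183b, 0.46 for Serpini1 and 0.17 for Cnga1. For Clybl it lay between the others, at 0.04. These are descriptions of single arrays. No share over all genes is given for such counts, so they do not show that the 4 genes moved together within groups.

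The profiles most like each gene were found by the root mean square difference over the 12 arrays, after each gene's own mean had been subtracted. Since all arrays enter this choice, likeness in drug and population differences follows largely from it and is a description. Clybl and Serpini1 were close to each other (0.25 on the log2 scale), which follows in part from the choice of both for a fall in both populations. Of the 22179 other genes, Serpini1 ranked 2 for Clybl and Clybl ranked 8 for Serpini1. Both had Sap30, a subunit of a histone deacetylase complex (0.24 from Clybl, 0.22 from Serpini1), and the predicted gene Gm13546 (0.26 and 0.22) among their 3 nearest, and Tmem218 was the nearest to Serpini1 (0.21). Sap30 differed by −0.86 in nTregs and by −0.71 in CD4 cells. The nearest to Cnga1 were Slpi, a secreted protease inhibitor (0.18), Emc9 (0.19) and Dntt, the terminal transferase of lymphocyte precursors (0.24). All 3 were lower in nTregs than in CD4 cells, with population differences of −1.03, −0.94 and −1.07.

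The nearest profiles of Fam183b lay further off on the log2 scale than those of the other 3 genes, but Fam183b also varied more. The spread of a gene around its own mean was 0.61 for Clybl, 0.74 for Cnga1 and 0.56 for Serpini1. For Fam183b this spread was 1.66. Its nearest profiles were Muc3a (a mucin, 0.73), Tigit (an inhibitory receptor, 0.80) and Slc25a33 (a mitochondrial pyrimidine nucleotide carrier, 0.82). These 3 were higher in nTregs by 2.48, 3.25 and 1.74, and differed with AzaC in nTregs by −1.35, −0.78 and −1.15. In CD4 cells they differed with AzaC by 0.10, −0.27 and −0.14, where Fam183b differed by −1.41.

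Of 11 measured genomic neighbours of the 4 genes, limma called 0 with AzaC in either population (adjusted p from 0.0854 to 0.997). Of all genes, 0.6% were called lower and 1.42% higher in nTregs, and 0.933% lower and 0.83% higher in CD4 cells. A count of 0 is thus near the background for so few genes. For 7 of the 11 (Olfr315, Olfr313, Olfr314, 1700108J01Rik, Gm5089, Slc10a4l and Platr10) every group mean lay below 6.78, in dim signal, so a fall could hardly be seen. Tm9sf2, Zic5, Nipal1 and Pdcd10 were brighter. Fam183b lies on chromosome 11 among olfactory receptor genes. Olfr315, Olfr313 and the overlapping Olfr314 had group means of 6.06 to 6.44 and differences of −0.09 to 0.15. For Clybl the neighbours Tm9sf2 (0.28 in nTregs and −0.29 in CD4 cells) and Zic5, and the overlapping non-coding genes 1700108J01Rik and Gm5089, ranged from −0.29 to 0.28. For Cnga1, Nipal1 (a magnesium transporter, 8.57 in CD4 PBS) differed by −0.06 and −0.20. The pseudogene Slc10a4l on the other side was dim (3.64 to 4.39) and differed by 0.24 in nTregs and −0.74 in CD4 cells (adjusted p = 0.0854 for the latter).

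Serpini1 starts 641 bases from Pdcd10, a gene of vascular integrity and cell death that is read from the opposite strand. Pdcd10 stood at 9.72 in nTreg PBS and 9.40 in nTreg AzaC, a difference of −0.32 (SE 0.16, limma adjusted p = 0.331). In CD4 cells it stood at 9.64 and 9.35 (−0.28, SE 0.16, adjusted p = 0.426). Both differences had the sign of those of Serpini1 (−0.94 and −1.04) without passing. Platr10, on the other side of Serpini1, differed by −0.05 and 0.23.

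**Figure D4:**
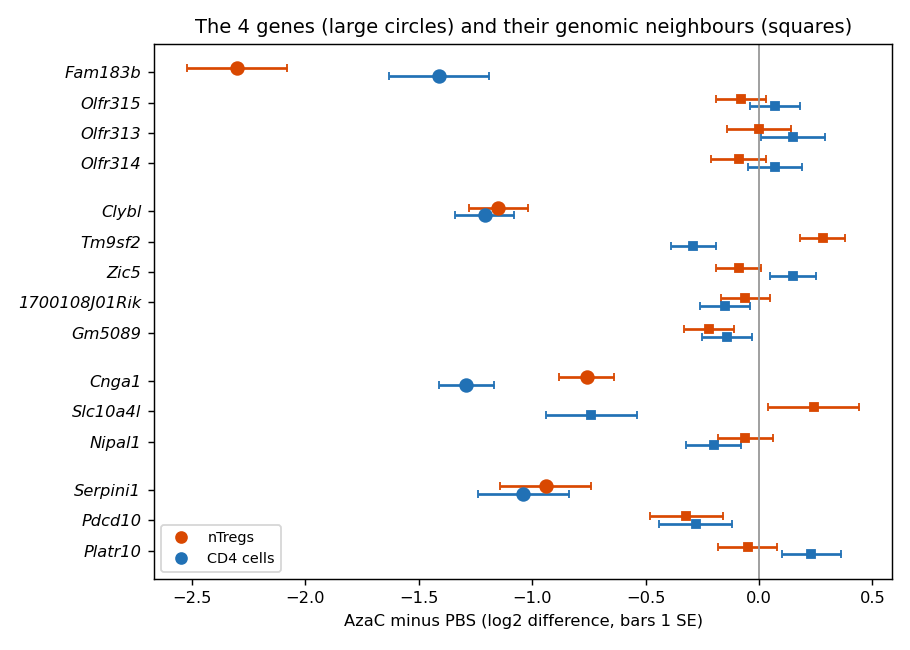
AzaC minus PBS (horizontal axis, log2 difference with bars of 1 SE) in nTregs and CD4 cells for the 4 genes (large circles) and their measured neighbours or overlapping genes (squares; vertical axis, grouped by gene). The 4 genes lie between −0.76 and −2.30 and the brighter neighbours Tm9sf2, Nipal1 and Pdcd10 between −0.32 and 0.28. Zic5 lay just above dim signal and 7 neighbours had dim signal, where a fall could hardly be seen.

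The promoters of the 4 genes were not of 1 kind. The count of CG in the 300 bases around the start, the dinucleotide that carries most DNA methylation, was 26 for Clybl, 15 for Serpini1, 6 for Fam183b and 4 for Cnga1, where the median promoter held 7. Of all promoters, 83.1%, 65.4%, 43.6% and 31.4% held fewer. The richest and the poorest are shown, with CG in capitals, as the 250 bases before the start from RefSeq (GRCm38.p6): Clybl at chr14:122181444-122181693 on the plus strand and Cnga1 at chr5:72642753-72643002 on the minus strand.
Clybl: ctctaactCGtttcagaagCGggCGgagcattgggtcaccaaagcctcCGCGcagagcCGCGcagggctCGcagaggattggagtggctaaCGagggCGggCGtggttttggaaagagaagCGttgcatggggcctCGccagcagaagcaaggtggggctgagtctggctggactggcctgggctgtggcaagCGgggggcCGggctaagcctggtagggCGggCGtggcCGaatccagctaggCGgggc
Cnga1: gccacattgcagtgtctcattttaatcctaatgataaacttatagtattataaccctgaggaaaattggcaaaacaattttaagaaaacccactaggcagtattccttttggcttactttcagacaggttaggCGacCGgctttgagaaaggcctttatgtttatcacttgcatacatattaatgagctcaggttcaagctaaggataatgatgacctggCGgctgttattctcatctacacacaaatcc
The GC share was 67.3% for Clybl and 41.3% for Cnga1. The motif GGGCGG of Sp1 (both strands) was found 4 times for Clybl and not for the other 3, and 35.7% of all promoters held it. CCAAT was found in all 4 promoters and in 37.4% of all. TATAAA (13.6% of all promoters), TGACTCA (5.2%) and CACGTG (7.15%) were found in none of the 4. No motif but CG and CCAAT was common to the 4, and the arrays did not measure methylation.

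No measured gene of 4 lists built around the members' roles was called lower with AzaC in either population, where 0.6% (nTregs) and 0.933% (CD4 cells) of all genes were, so that a count of 0 is near the background for lists of this size. Of 37 motile cilium and axoneme genes, limma called 0 in nTregs (3 at an unadjusted p under 0.05) and 0 in CD4 cells (5), with medians of −0.08 and 0.08. The extremes were Ccdc40 (−0.28) and Dnah7a (0.53) in nTregs, and Rfx3 (−0.41) and Hydin (0.48) in CD4 cells. Called higher were 1.42% of all genes in nTregs and 0.83% in CD4 cells. The share of all genes at an unadjusted p under 0.05 is not given, so such counts have no background for any list. Without nTreg PBS 1, 2 cilium genes passed in CD4 cells, and without nTreg PBS 2, 1 passed in nTregs. Over all genes, the number called lower in CD4 cells also went from 207 to 676 without nTreg PBS 1. That background applies to the counts of every list in this setting.

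Of 23 genes of itaconate breakdown, propionate and vitamin B12, limma called 2 higher and 0 lower in nTregs (median 0.13), where 1.42% of all genes were called higher. In CD4 cells limma called 0 (5 had an unadjusted p under 0.05), with a median of −0.13, and 3 without nTreg PBS 1. Suclg2, the GTP-forming succinyl-CoA ligase subunit that also acts on itaconate, rose in nTregs by 0.75 (SE 0.12, adjusted p = 0.00441), from 8.59 ± 0.13 (SD, n = 3) to 9.34 ± 0.08. Taken as the mean over its rows, it differed by 0.44 (adjusted p = 0.0842). Mtrr, which restores methionine synthase with its vitamin B12 cofactor, rose by 0.59 (SE 0.13, adjusted p = 0.0379). That call was lost without any of CD4 PBS 1 or 2, CD4 AzaC 3, nTreg PBS 1 or 3, or nTreg AzaC 1, 2 or 3 (0.0541 to 0.176), and with no variance moderation (0.102).

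Of 30 genes of cyclic nucleotide gated channels and rod phototransduction, 0 were called in nTregs by limma (0 with an unadjusted p under 0.05), where the median was −0.06. In CD4 cells 0 were called too (4 with an unadjusted p under 0.05), with a median of 0.06. Gucy1a1, a subunit of the soluble guanylate cyclase that makes cGMP, stood at 0.50 in CD4 cells, the highest of the list.

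Of 26 serpins and genes of plasminogen activation, limma called 2 higher and 0 lower in nTregs (median −0.08), where 1.42% of all genes were called higher. The extremes there were Plaur (0.82) and Vldlr (−0.74), and neither was called. In CD4 cells limma called 0 (2 had an unadjusted p under 0.05), with a median of −0.01, and 2 without nTreg PBS 1. Serpinb9, an inhibitor of granzyme B, rose in nTregs by 0.74 (SE 0.13, adjusted p = 0.0106), from 8.18 ± 0.07 (SD, n = 3) to 8.92 ± 0.10. Its adjusted p was 0.0580 without nTreg AzaC 1, 0.0593 without nTreg AzaC 3 and 0.0556 with no variance moderation. Serpinc1, antithrombin, rose by 0.77 (SE 0.17, adjusted p = 0.0328) from dim signal (6.20 ± 0.30 to 6.97 ± 0.17). It was lost without any of CD4 AzaC 2, nTreg PBS 1 or 3, or nTreg AzaC 1, 2 or 3 (0.0512 to 0.140), and with no variance moderation (0.121). Without nTreg PBS 2, 4 genes of the list passed in nTregs, and without nTreg AzaC 1 or 3, 0 did.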

How the data were processed

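The authors deposited log2 values. The submitters' processing notes name RMA and Affymetrix Expression Console without versions. A genome build was not given in the sources used here. The 41345 rows were used as deposited. Rows with exactly 1 gene symbol (23521) were kept, and the brightest row over 12 arrays was taken per gene, which left 22180 genes with no filter on dim signal. Each of the 4 members has 1 such row, and all 4 were kept.

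In R 4.3.3, limma 3.58.1 fitted a group-means model over the 12 arrays (8 residual degrees of freedom, prior 5.95), with Benjamini-Hochberg adjustment over all genes and a threshold of 0.05. The number of arrays limits the precision. The fit was tested on simulated data. The members, gene lists and tests were chosen with earlier results of these data known.

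Genes named were the members, the 3 most like profiles each, the nearest and overlapping annotated genes, list genes past the threshold (up to 4 per list), and the 3 genes nearest in rank to the lowest member among those lower in both populations. List extremes, overlapping genes and the X-box-like spelling were added after their values were seen. Promoters came from RefSeq. Same-numbered arrays were not treated as pairs, since 3 of 18 correlations of their deviations were over 0.1. Alternatives were array centring, repeated quantile normalization, the mean over a gene's rows, a replicate block, array weights, a filter on dim genes, other variance moderation and leaving out each array.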

Additional observations from a re-analysis of the deposited data

How the results depend on the processing

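The AzaC differences of the 4 genes kept their sign and moved by less than the spread between replicates under array centring, repeated quantile normalization, the mean over rows, array weights and each array left out. The population calls of Fam183b and Cnga1, and the missing calls of Clybl and Serpini1, kept their side of the threshold under these and under the dim filter and the other variance settings (adjusted p at most 0.000241 for Fam183b and Cnga1, at least 0.127 for Clybl and Serpini1). Each of the 4 genes has 1 row, so the mean over rows could not move its differences. Their AzaC and PBS arrays did not overlap within a population, so leaving out 1 array could not change a sign. Taken in 1 drug state, the population difference was 3.12 under PBS and 2.23 with AzaC for Fam183b, and −1.28 and −0.75 for Cnga1. With the replicate block, 34 genes were lower in both populations (36 without it), and no call of the 4 genes changed. The balanced design fixes the differences themselves under this block. That of Fam183b between populations thus stayed at 2.67, and only its limma adjusted p could move (4.44e-07). Centring each array gave 83 genes lower in nTregs and 325 in CD4 cells, and 1 cilium gene passed in each population. Among genes above the median signal, 344 were lower in CD4 cells and 57 in both, with fewer genes tested; there 1 cilium gene, 1 vitamin B12 list gene and 1 serpin list gene passed in CD4 cells, and 1 serpin list gene in nTregs. With the mean over rows, 1 vitamin B12 list gene passed in nTregs. Leaving out 1 array gave 44 to 158 genes lower in nTregs, 64 to 676 in CD4 cells, 13 to 72 in both, and 2069 to 3020 called between populations. In nTregs it gave 0 to 1 cilium, 1 to 2 vitamin B12 and 0 to 4 serpin list genes, and in CD4 cells 0 to 2, 0 to 3 and 0 to 2. The cause of these shifts was not tested. These settings for the lists were chosen after seeing the data. Dim signal limits the sizes for Fam183b and Serpini1 in CD4 cells and Cnga1 in nTregs. The falls of Cnga1 in CD4 cells and of Serpini1 in nTregs end just above it.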
